A study of Mus musculus with 51 samples.

Results

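The immediate early genes described here were *Egr1*, *Egr2*, *Egr3*, *Fos*, *Fosb*, *Fosl1*, *Jun*, *Junb*, *Ier2* and *Ier3*, looked up by symbol, and all 10 were found among the 24538 genes of each table. The 18 RNA samples of the series follow mouse embryonic stem (ES) cells as they form mesoderm under Bmp4 (20 ng/ml), and ask what Smad4, Eomes and T, a signalling mediator and a pair of T-box transcription factors, contribute to gene expression on the way. F1G4 WT cells were taken in the ES state, which had received no Bmp4, and on days 1, 2 and 3, with 2 samples per stage by their labels, and *Eomes* KO, *T* KO and *Eomes*/*T* double KO (dKO) cells on days 2 and 3. A second line with a conditional *Smad4* allele, 129S/SvEvxC57BL/6 by its label, was taken on days 1 and 2, before (*Smad4* WT) and after (*Smad4* KO) removal of *Smad4*, with 1 labelled sample for each KO line or *Smad4* WT and day, although the study's legends speak of 2 replicates, which leaves unclear what number of samples a KO value holds. The values are FPKM (fragments per unit of transcript length and of library size, a level that can be compared between genes), and each condition has a single value per gene.

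*Eomes* KO and *T* KO cells were single clones of F1G4 cells in which the promoter and exon 1 of that gene had been deleted, and the dKO line was made from the *Eomes* KO clone. *Smad4* KO cells were a single clone from which Cre had removed exon 1. A difference between a KO line and WT can therefore not be told apart from a difference between clones. The columns pool their samples, so no difference below has a replicate check, an SD or a test. Depth is unknown. All RNA came from whole cultures, in which fewer cells that express a gene and less RNA per cell cannot be told apart.

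Immediate early genes are transcribed within minutes of a stimulus, without new protein synthesis, because the factors that switch them on are already present in the cell. ERK signalling phosphorylates ternary complex factors such as Elk1, which sit with SRF on CArG boxes, and CREB acts through cyclic AMP response elements. The products include zinc finger factors of the Egr family and the Fos and Jun proteins that pair as AP-1. Their RNAs are short-lived, and fibroblast growth factor signalling, a main input to ERK, is needed for mesoderm formation in the embryo.

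The promoters of *Fos*, *Fosb*, *Egr2* and *Jun* are shown because they hold matches to elements of the kind through which such genes are switched on. Windows of the RefSeq promoter table (GRCm38.p6) were searched for 6 of the 10 genes, *Jun*, *Fosb*, *Junb*, *Egr2*, *Fos* and *Ier3*. A window ran from 250 bases before to 50 bases from the start on. No window was searched for *Egr1*, *Egr3*, *Fosl1* and *Ier2*, so nothing is said here about their promoters. The 150 bases before the curated start follow, on the strand of the gene, with matches of the motifs named below in capitals.
Fos (chr12:85473740-85473889, plus strand): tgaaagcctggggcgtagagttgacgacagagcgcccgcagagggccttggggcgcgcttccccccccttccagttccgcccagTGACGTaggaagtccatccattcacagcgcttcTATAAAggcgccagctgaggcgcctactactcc
Fosb (chr7:19310046-19310195, minus strand): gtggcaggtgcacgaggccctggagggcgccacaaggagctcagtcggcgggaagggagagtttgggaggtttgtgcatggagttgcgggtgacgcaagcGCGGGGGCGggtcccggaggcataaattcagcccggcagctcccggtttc
Egr2 (chr10:67537719-67537868, plus strand): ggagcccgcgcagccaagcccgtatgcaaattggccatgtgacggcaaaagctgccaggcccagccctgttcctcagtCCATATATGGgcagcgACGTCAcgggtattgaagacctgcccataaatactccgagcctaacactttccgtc
Jun (chr4:95052223-95052372, minus strand): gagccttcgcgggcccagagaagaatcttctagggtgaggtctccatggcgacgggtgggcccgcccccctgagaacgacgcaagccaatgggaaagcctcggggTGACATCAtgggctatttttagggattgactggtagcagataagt

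Both strands were searched, and the share given for each motif is that of 21454 promoter windows of genes in the tables. *Egr2* holds a CArG box, the element bound by SRF, from base −72 to −63 relative to the start (1.49% of windows), in 4 of its 5 annotated windows. TGACGT, the core of a cyclic AMP response element (8.71% of windows), was found in *Fos* at −66 to −61 and in *Egr2* at −56 to −51 on the other strand. *Jun* holds TGACATCA, a variant to which Jun itself binds, at −45 to −38 (2.84% of windows). *Fosb* holds GCGNGGGCG, an Egr binding motif, at −50 to −42 (7.57% of windows). TATAAA (12.2% of windows) lay at −33 to −28 in *Fos*, and in *Junb* it began at the start itself. The AP-1 motif TGANTCA (7.28%), the T-box motif AGGTGTGA (1.18%) and the TCF motif CTTTGAT (3.34%) were not among the letters of the windows of the 6 genes. A match describes the sequence and is no measured binding site.

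All 10 genes are compact. In the RefSeq annotation of GRCm38.p6 (mm10) they have 1 to 4 exons (median 2) and span 1199 to 8241 bases (median 3568), against a median of 7 exons and 16722 bases over 20046 genes with a curated transcript. *Egr1* lies on chromosome 18 (34861207 to 34864956, plus strand, 2 exons), *Fos* on chromosome 12 (85473890 to 85477274, plus strand, 4 exons), *Jun* on chromosome 4 (95049036 to 95052222, minus strand, a single exon) and *Egr2* on chromosome 10 (67537869 to 67542188, plus strand, 2 exons). *Junb* and *Ier2* have a single exon each and both lie on chromosome 8. Their transcripts are richer in GC (51.3 to 62.6%, median 55.8%) than the median of 49.7% over 12458 expressed genes.

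The genes fell into 3 levels (see the plot of FPKM in 14 conditions). *Jun*, *Junb*, *Ier2* and *Ier3*, the first pair AP-1 subunits and the second pair early response proteins, stood above FPKM 1 in all 14 conditions. *Egr1*, *Egr2*, *Fos* and *Fosl1* crossed FPKM 1 in some conditions, *Fos* in 6, *Egr1* in 4, *Egr2* in 2 and *Fosl1* in 1. *Egr3* and *Fosb* never reached 1, and their highest FPKM, 0.587 and 0.876, were both in the *T* KO on day 3. *Ier2* had the highest FPKM of the 10 in 12 conditions, *Jun* in the *Eomes* KO on day 3 and *Junb* in the *T* KO on day 2. Between 4 and 8 genes were above 1 in a condition, and the F1G4 WT cells of day 2 were the condition with 8.

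The spread across conditions differed between the genes. *Fos* ranged from 0.207 in the *Smad4* KO on day 2 to 8.72 in the *T* KO on day 3 (median 0.821), 42.0-fold. *Egr2* ranged 33.0-fold, from 0.0428 in *Smad4* WT cells on day 1 to 1.42 in the *T* KO on day 3, and *Egr1* 27.2-fold, from 0.191 in the dKO on day 2 to 5.19 in the *T* KO on day 3. *Jun* ranged 15.2-fold, from 1.70 in ES cells to 25.8 in the *T* KO on day 3. *Ier3* (7.61-fold), *Junb* (6.51-fold), *Fosl1* (6.10-fold) and *Ier2* (5.24-fold) varied less. Levels set side by side across tables come from tables normalized separately.

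**Figure D1:**
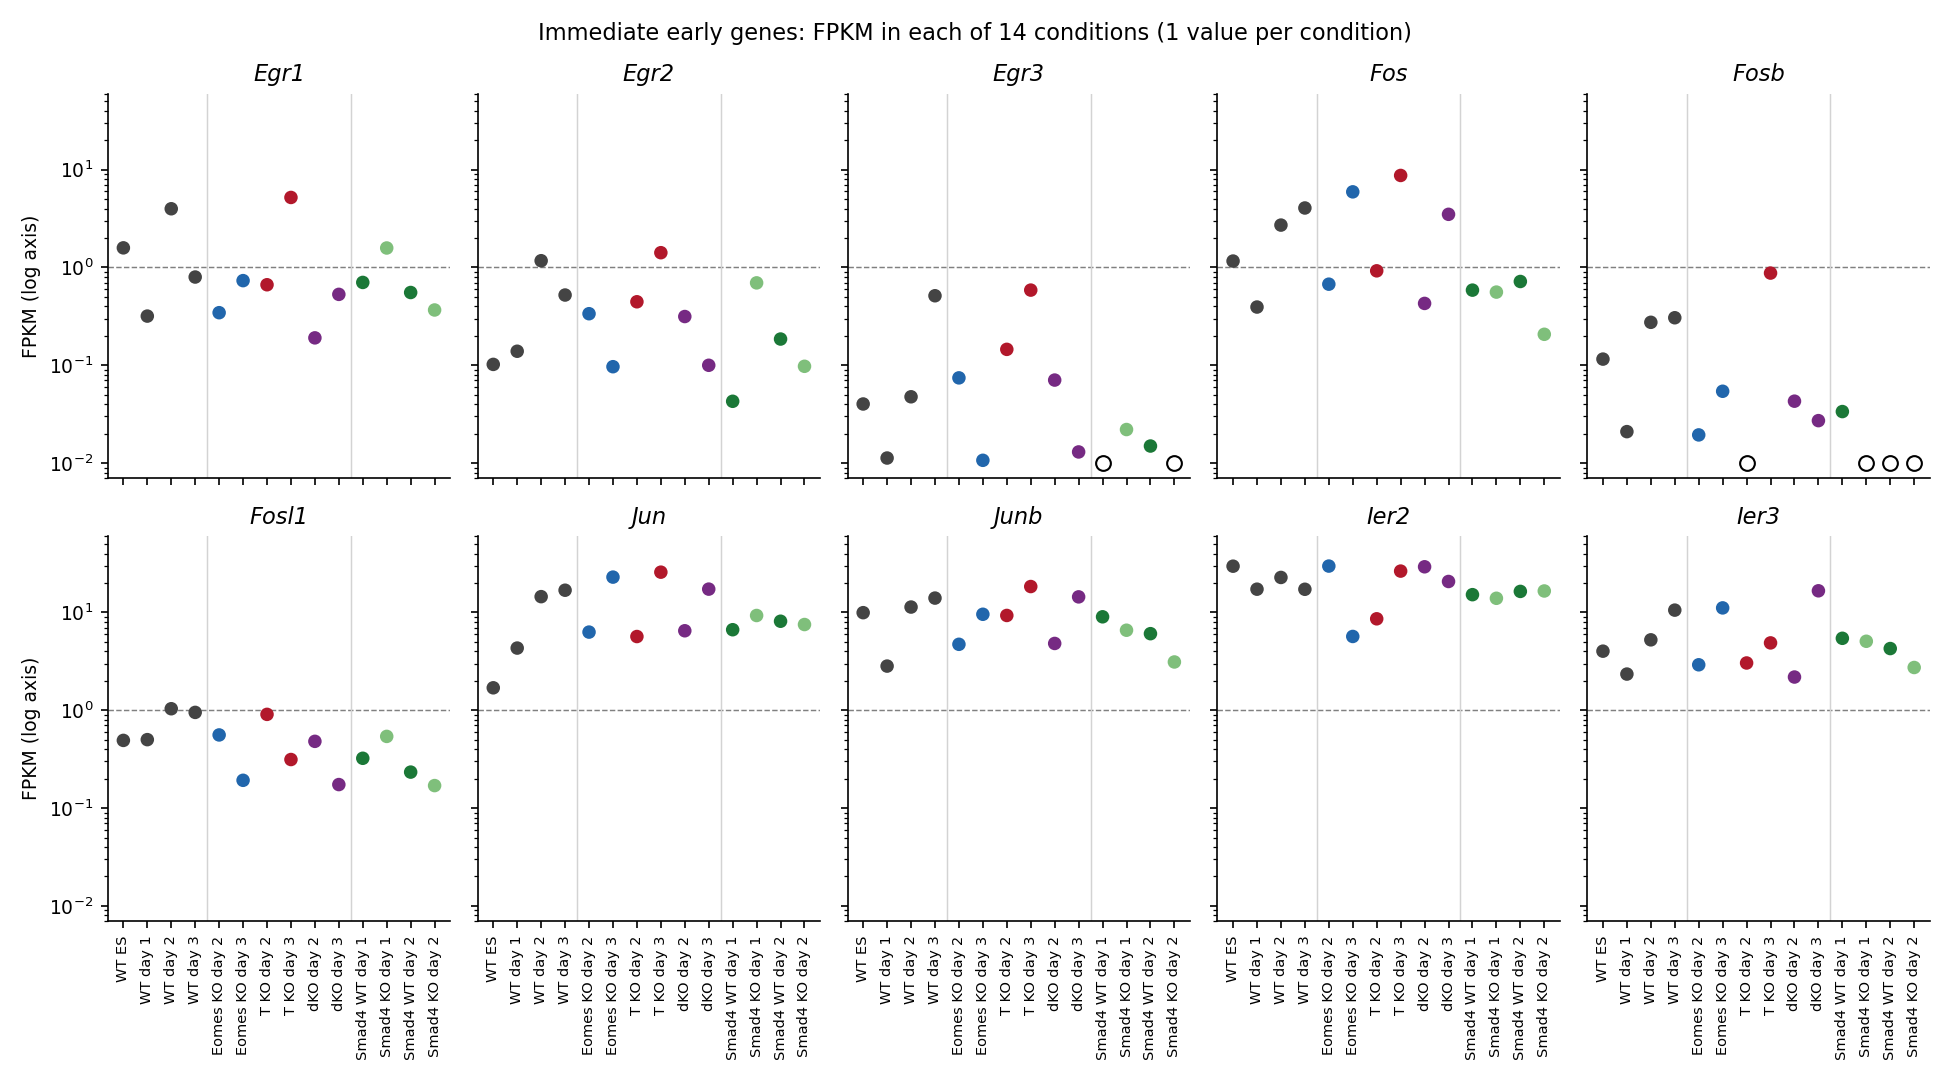
FPKM (log axis) of each of the 10 genes in 14 conditions, 1 point per condition, in the same order in both rows: F1G4 WT (grey), *Eomes* KO (blue), *T* KO (red), dKO (purple), *Smad4* WT (dark green) and *Smad4* KO (light green). Open circles drawn at 0.01 are values listed at 0, and the dashed line marks FPKM 1. *Egr1* is at 3.98 in F1G4 WT cells on day 2 and 5.19 in the *T* KO on day 3, and at 1.59 or below in the other conditions, while *Ier2* is above 5 in all 14.

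A change was called by the rule of the study, in which a gene is examined when its FPKM is above 1 in at least 1 of both columns and passes when its log2 ratio is above 1 or below −1. The first comparison asked how the genes moved as F1G4 WT cells left the ES state. From ES cells to day 1, 3 of 6 examined genes passed as lower, beside 5.84% of all examined genes, and 1 as higher, beside 7.7%. *Egr1* went from 1.59 to 0.318 (log2 ratio −2.32), *Junb* from 9.94 to 2.83 (−1.81) and *Fos* from 1.16 to 0.394 (−1.56). *Jun* went the other way, from 1.70 to 4.32 (1.35). *Ier2* (29.7 to 17.3) and *Ier3* (4.02 to 2.34) were lower by log2 ratios of −0.78 each and did not pass. *Egr1* and *Fos* were below FPKM 1 on day 1, so they were examined through the ES value alone and could not pass as higher.

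Between days 1 and 2, when *T* went from 0.778 to 43.5, 7 of 8 examined genes passed as higher, beside 7.17% of all genes, and none as lower, beside 4.13%. *Egr1* went from 0.318 to 3.98 (3.64), the 30th highest log2 ratio of 11262 examined genes. *Egr2*, a close relative of *Egr1*, went from 0.139 to 1.17 (3.07), and *Fos* from 0.394 to 2.71 (2.78). The AP-1 subunits *Junb* (2.83 to 11.3, log2 ratio 2.00) and *Jun* (4.32 to 14.5, 1.75) also passed. *Ier3*, which acts in cell survival, passed at 1.16 and *Fosl1* at 1.05. *Ier2* went from 17.3 to 22.8 (0.40). The median log2 ratio was 1.88 over the 8 genes and close to 0 over all examined genes. *Egr1*, *Egr2*, *Fos* and *Fosl1* were below FPKM 1 on day 1 and above it on day 2. They were thus examined through their day 2 value alone and could not pass as lower.

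On day 3 the 10 genes parted. *Egr1* went from 3.98 to 0.798 (−2.32) and *Egr2* from 1.17 to 0.522 (−1.17), 2 of 8 examined genes lower, beside 4.06% of all genes. Both were below FPKM 1 on day 3 and were examined through their day 2 value alone. *Ier3* went from 5.24 to 10.6 (1.01), the single gene that passed as higher, beside 6.14%. *Fos* (2.71 to 4.05, 0.58), *Jun* (14.5 to 16.9, 0.22) and *Junb* (11.3 to 14.0, 0.30) did not pass. *Egr3* was listed at 0.0402, 0.0113 and 0.0476 in ES cells and on days 1 and 2, and at 0.514 on day 3.

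Day 2 of the second WT line did not show these levels. *Egr1* was at 0.703 on day 1 and 0.554 on day 2 in *Smad4* WT cells, *Fos* at 0.586 and 0.719, *Jun* at 6.65 and 8.12, and *Junb* at 9.02 and 6.06. With both of these columns brought to a median ratio of 1, none of 4 examined genes passed from day 1 to day 2. Of all genes, 5.57% passed as lower and 2.74% as higher. The log2 ratios of the 4 ran from −0.61 (*Junb*) to 0.25 (*Jun*). *Egr1*, *Egr2*, *Fos* and *Fosl1* were below FPKM 1 on both days and were not examined. The mesoderm marker *T* was at 26.6 and *Eomes* at 24.8 in these cells on day 2, so the culture expressed both.

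The WT columns of both lines were set beside each other. The lines were derived separately, and the columns differ in the conditional *Smad4* allele and in the table they were normalized in. On day 2, scaled to a median ratio of 1, the log2 ratio of *Smad4* WT to F1G4 WT cells was −2.83 for *Egr1*, −2.65 for *Egr2*, −1.90 for *Fos* and −2.14 for *Fosl1*. It was −0.89 for *Junb*, −0.82 for *Jun*, −0.46 for *Ier2* and −0.28 for *Ier3*. For comparison, 95% of the 2052 genes whose higher FPKM lay between 1 and 3 had log2 ratios from −1.91 to 1.26, and of the 3252 genes between 3 and 10 from −1.15 to 0.87. *Egr1*, *Egr2* and *Fosl1* lay below these ranges and *Fos* at the edge, and *Junb* lay just below the −0.86 to 0.67 of the 2986 genes between 10 and 30. On day 1 the direction was the other one for *Junb* (2.83 in F1G4 WT and 9.02 in *Smad4* WT cells, log2 ratio 1.73), *Ier3* (2.34 and 5.44, 1.27) and *Egr1* (0.318 and 0.703, 1.20). The day 1 range of 95% of the 3195 genes between 3 and 10 was −1.34 to 1.51. *Junb* lay above this range and *Ier3* within it, and *Egr1* was below FPKM 1 in both columns.

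**Figure D2:**
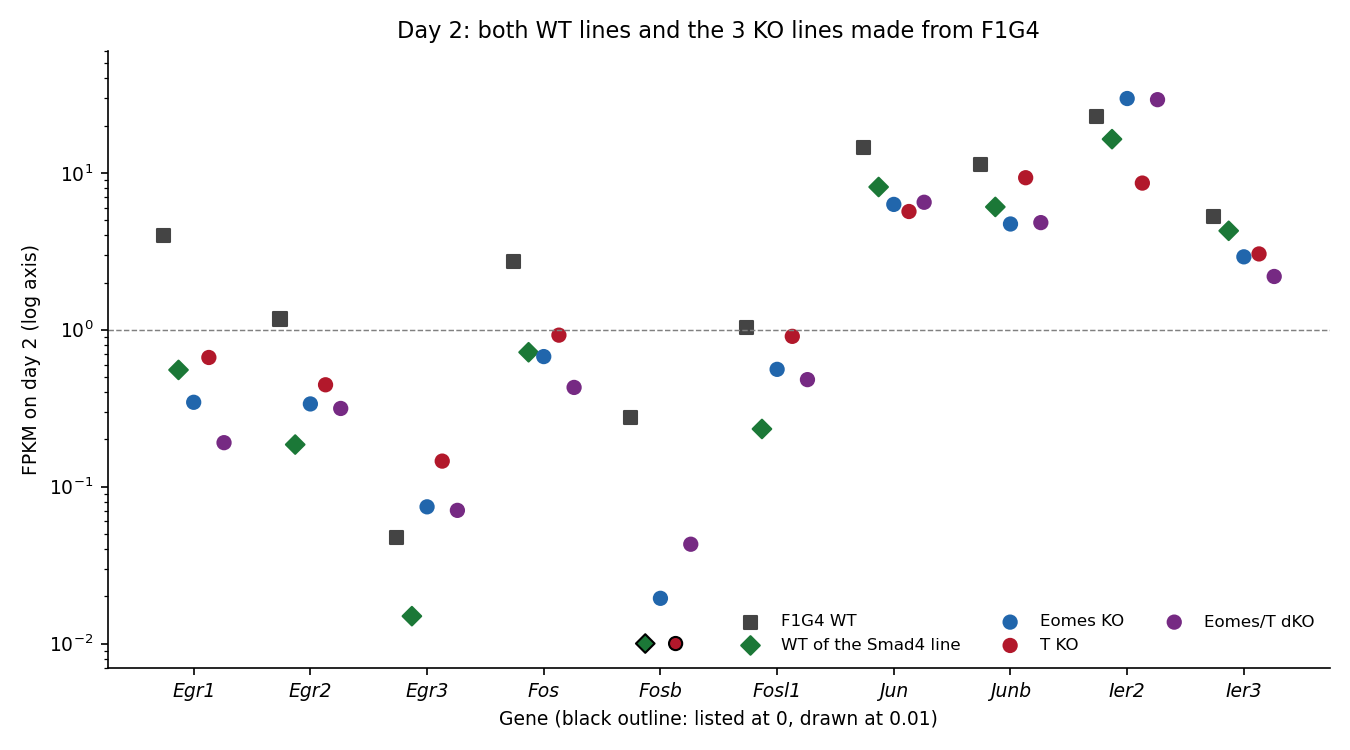
FPKM (log axis) of the 10 genes on day 2 in F1G4 WT cells (squares), WT cells of the *Smad4* line (diamonds) and the *Eomes* KO, *T* KO and dKO (circles), 1 point per condition, with values listed at 0 drawn at 0.01 in a black outline and FPKM 1 dashed. The F1G4 WT point lies above all 3 KO points for 8 of 10 genes, and the WT point of the *Smad4* line lies among or below the KO points for 8.

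In the KO lines made from F1G4, the WT columns of a day are multiples of the same time-course column (factors 0.989 to 1.04), so all 3 comparisons of a day share their control. The deleted genes were checked first. *Eomes* was at 2.42 in the *Eomes* KO and 1.24 in the dKO on day 2 against 9.42 and 9.40 in WT cells, and at 0.276 and 0.346 on day 3. *T* was at 6.64 in the *T* KO and 2.77 in the dKO on day 2 against 44.8 and 43.0, and at 3.00 and 1.93 on day 3. *T* was also at 22.3 in the *Eomes* KO on day 2 and *Eomes* at 24.7 in the *T* KO. Of 8 nascent mesoderm markers, 6 were examined in each line on day 2, where 3 passed as lower in the *Eomes* KO, 4 in the dKO and 3 in the *T* KO, which also had 2 higher (*Eomes* and *Evx1*). On day 3 all 8 passed as lower in each line. The 8 include *Eomes* and *T*, so the deleted genes are among those lower on both days. Of all genes, 4.17% to 9.93% passed as lower in these lines on day 2 and 3.92% to 9.01% on day 3. As higher, 5.7% passed in the *T* KO on day 2.

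On day 2 most of the genes were lower in each KO line than in F1G4 WT cells. In the *Eomes* KO 5 of 8 examined genes passed as lower, beside 4.17% of all genes, and none as higher, beside 3.35%. The *T* KO had 5 of 8 lower, beside 9.93%, and none higher, beside 5.7%. In the dKO 7 of 8 passed as lower, beside 4.5%, and none as higher, beside 3.48%. The medians over the 8 genes were −1.22, −1.43 and −1.23, and those over all examined genes −0.01 in each line. *Egr1*, *Egr2*, *Fos* and *Fosl1*, 4 of the 8, were above FPKM 1 in the WT column and below it in each KO column.

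Among the 8 examined genes *Egr1* had the lowest ratio in each line. It was at 0.345 in the *Eomes* KO (−3.52), at 0.666 in the *T* KO (−2.64) and at 0.191 in the dKO (−4.38), against 3.96 to 4.14 in the WT columns. Only 12 of 11226 examined genes had a lower log2 ratio in the *Eomes* KO and 9 of 11195 in the dKO, but 105 of 11359 in the *T* KO. *Egr2* was at 0.337 (−1.79), 0.446 (−1.45) and 0.315 (−1.89) against 1.16 to 1.22. *Egr3* did not reach FPKM 1 in any of these columns and was listed at 0.0743, 0.145 and 0.0706, against 0.0476 in F1G4 WT cells.

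Among the AP-1 genes, *Fos* was at 0.674 in the *Eomes* KO (−2.00), 0.924 in the *T* KO (−1.61) and 0.429 in the dKO (−2.65), against 2.69 to 2.81. *Jun* passed in all 3 lines, at 6.29 (−1.19), 5.67 (−1.40) and 6.49 (−1.14) against 14.4 to 15.0. *Junb* was at 4.72 in the *Eomes* KO (−1.25) and 4.82 in the dKO (−1.22) and passed in both, but was at 9.31 in the *T* KO (−0.33) against 11.7. *Fosl1*, a Fos relative, passed in the dKO alone of these lines (0.481, −1.09). *Fosb* was listed at 0 in the *T* KO, at 0.0194 in the *Eomes* KO and at 0.0429 in the dKO, against 0.275 in F1G4 WT cells.

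The early response genes split between the lines. *Ier3* was at 2.18 in the dKO (−1.25) and passed, and at 2.92 in the *Eomes* KO (−0.84) and 3.04 in the *T* KO (−0.83), against 5.19 to 5.42. *Ier2* was at 8.60 in the *T* KO against 23.5 in WT cells (−1.45) and passed as lower. In the *Eomes* KO (29.8 against 22.6, 0.40) and the dKO (29.3 against 22.5, 0.38) *Ier2* was above WT cells. *Ier2* and *Junb* lie on chromosome 8, whose examined genes had a median log2 ratio of 0.17 to 0.23 in all 6 comparisons of these lines.

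With the WT cells of the *Smad4* line as reference in place of F1G4 WT cells, none of the 10 genes passed in any of the 3 lines on day 2. The 4 genes then examined were *Jun*, *Junb*, *Ier2* and *Ier3*, at log2 ratios of −0.57 to −0.33 for *Jun* and −0.98 to −0.54 for *Ier3*. *Junb* was at −0.35 in the *Eomes* KO, 0.57 in the *T* KO and −0.34 in the dKO, and *Ier2* at 0.87, −0.98 and 0.83. *Egr1*, *Egr2*, *Fos* and *Fosl1* were at or below FPKM 1 in both columns and were no longer examined. In that setting 4.74%, 11.0% and 5.65% of all genes still passed as lower in these lines, named in the order *Eomes* KO, *T* KO, dKO, and 6.73%, 10.4% and 7.21% as higher. This reference comes from another line and table, and which WT column is nearer to the usual level of F1G4 cells was not tested.

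Other measures moved in the same day 2 columns. RNAs of at most 300 bases had a median log2 ratio of 2.49 in the *Eomes* KO, 2.32 in the *T* KO and 2.77 in the dKO. Of 9 heat shock genes, 8 were examined, and 4 passed as lower in the *T* KO, beside 9.93% of all genes. The dKO had 1 lower, beside 4.5%, and the *Eomes* KO none, beside 4.17%. In the *T* KO these were *Hsph1* (58.1 to 18.3), *Hspa1b* (1.86 to 0.649), *Hspb1* (34.8 to 15.1) and *Hsp90aa1*. Their part in the levels of the immediate early genes was not tested.

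**Figure D3:**
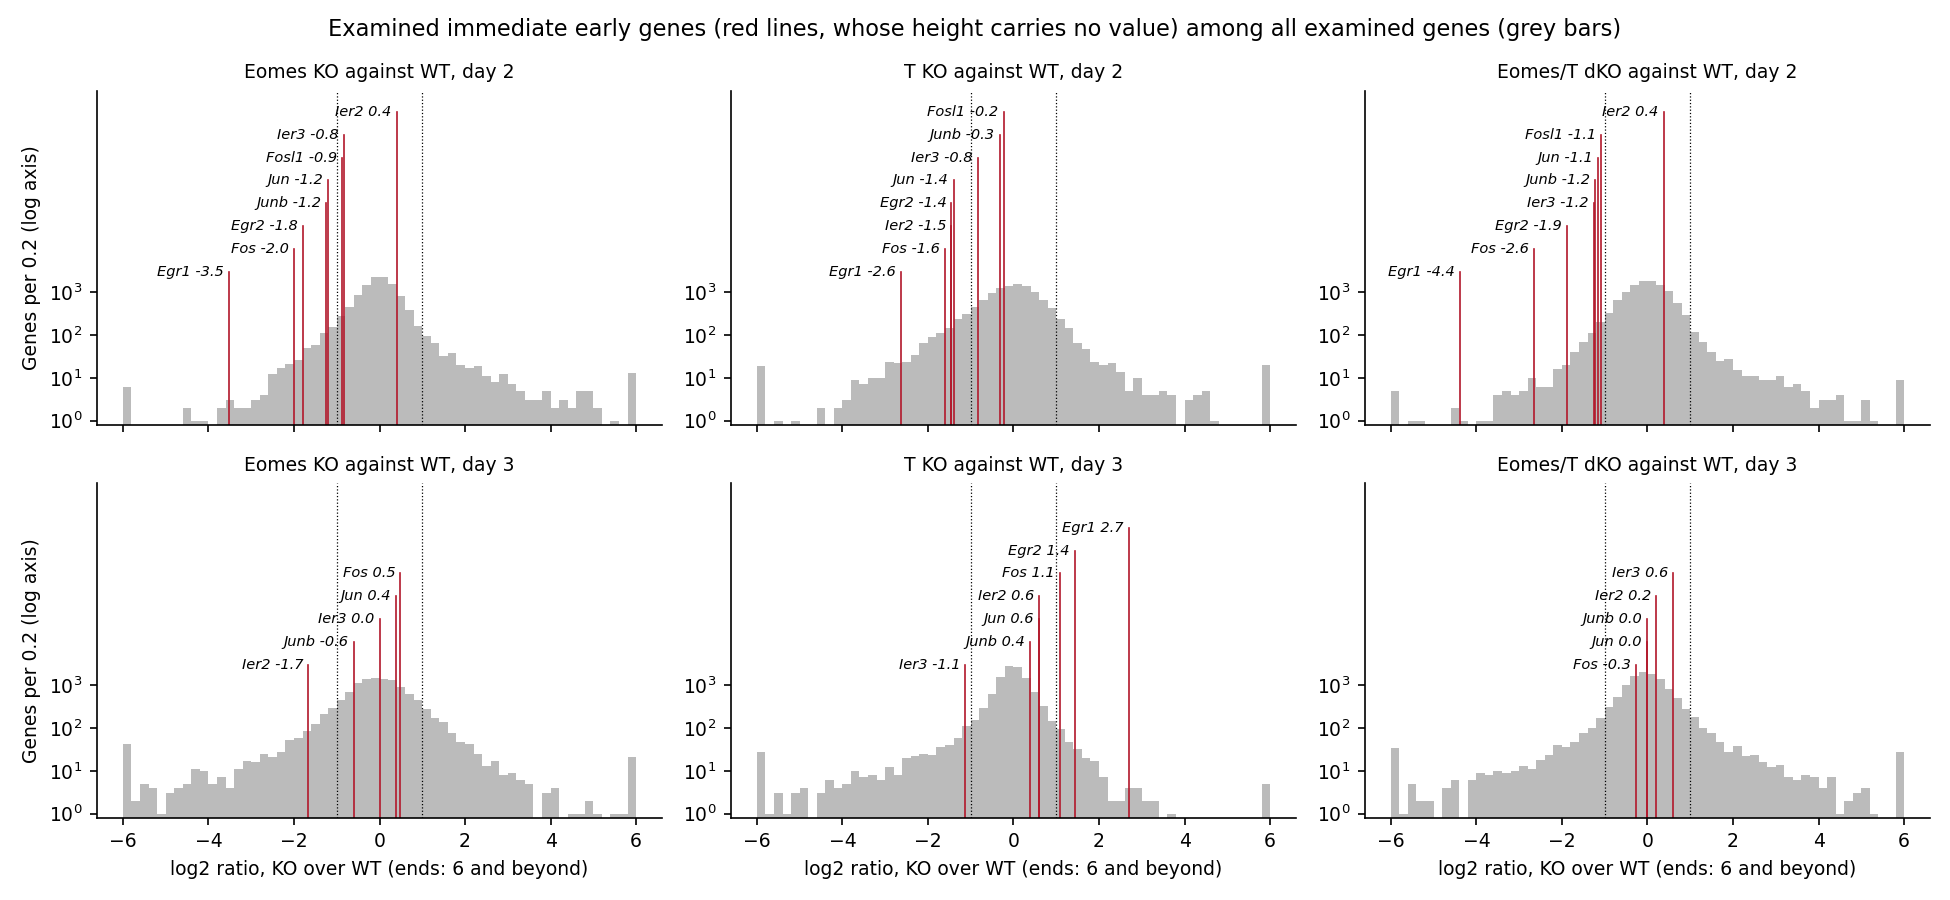
Log2 ratios of KO to WT for all examined genes (grey bars, genes per 0.2 on a log axis, with ratios at or beyond 6 in the end bars) and for the examined immediate early genes (red lines with name and value, of arbitrary height), for the 3 lines made from F1G4 on days 2 and 3, with dotted lines at −1 and 1. On day 2 *Egr1* lies in the far left tail of each panel, at −3.5, −2.6 and −4.4, and on day 3 it is examined in the *T* KO alone, at 2.7.

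On day 3 the picture differed by line. In the *Eomes* KO 1 of 5 examined genes passed as lower, beside 9.01% of all genes, and none as higher, beside 7.39%. That gene was *Ier2*, at 5.68 against 18.0 in WT cells (−1.66). *Fos* (5.93 against 4.22, 0.49), *Jun* (23.0 against 17.6, 0.38), *Junb* (9.57 against 14.6, −0.61) and *Ier3* (11.1 in both, 0.01) did not pass. In the dKO none of 5 passed, beside 5.53% lower and 5.51% higher over all genes, and log2 ratios ran from −0.27 (*Fos*, 3.49 against 4.20) to 0.60 (*Ier3*, 16.6 against 11.0). *Jun* (17.3 against 17.5) and *Junb* (14.4 against 14.5) were level with WT cells. *Ier2* in the dKO was at 20.7 against 17.9 (0.21), unlike in the *Eomes* KO clone from which the line was made. The genes not examined, at FPKM below 1 in WT and KO cells, were all below WT in both lines. *Fosl1* was at 0.192 in the *Eomes* KO and 0.174 in the dKO, against 0.986 and 0.983. In the same order, *Egr2* was at 0.0967 and 0.100 against 0.542 and 0.540, and *Egr3* at 0.0107 and 0.0130 against 0.533 and 0.531. *Fosb* was at 0.0542 and 0.0272 against 0.317 and 0.316, and *Egr1* at 0.733 and 0.531 against 0.831 and 0.827.

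In the *T* KO on day 3, 3 of 7 examined genes passed as higher, beside 2.12% of all genes, and 1 as lower, beside 3.92%. *Egr1* was at 5.19 against 0.804 (2.69), and 15 of 11239 genes had a higher log2 ratio. *Egr2* was at 1.42 against 0.526 (1.43) and *Fos* at 8.72 against 4.09 (1.09). *Egr1* and *Egr2* were below FPKM 1 in the WT column, so they were examined through the KO value alone and could not pass as lower. *Jun* (25.8 against 17.0, 0.60), *Ier2* (26.4 against 17.4, 0.61) and *Junb* (18.4 against 14.1, 0.38) were above WT cells without passing. *Ier3* was lower, at 4.88 against 10.7 (−1.13). Of the genes not examined, *Fosl1* was also below WT cells, at 0.313 against 0.956 (−1.61). *Fosb* was listed at 0.876 and *Egr3* at 0.587, against 0.306 and 0.514 in F1G4 WT cells. The summed FPKM of the 10 genes, 92.6, was the highest of the 14 conditions, and that of F1G4 WT cells on day 1, 28.1, the lowest.

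*Egr1*, *Egr2* and *Fos* thus passed as lower on day 2 and as higher on day 3 in *T* KO cells. The RNA levels in the KO columns themselves went from 0.666 to 5.19 for *Egr1*, from 0.446 to 1.42 for *Egr2* and from 0.924 to 8.72 for *Fos*. In the *Eomes* KO *Egr1* was at 0.345 and 0.733 and *Fos* at 0.674 and 5.93, and in the dKO *Egr1* was at 0.191 and 0.531 and *Fos* at 0.429 and 3.49. *Fos* was thus higher on day 3 than on day 2 in all 3 KO lines and in F1G4 WT cells. Short RNAs had a median log2 ratio of 0.95 in the *T* KO on day 3, 0.31 in the *Eomes* KO and 3.08 in the dKO, and their part was not tested.

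**Figure D4:**
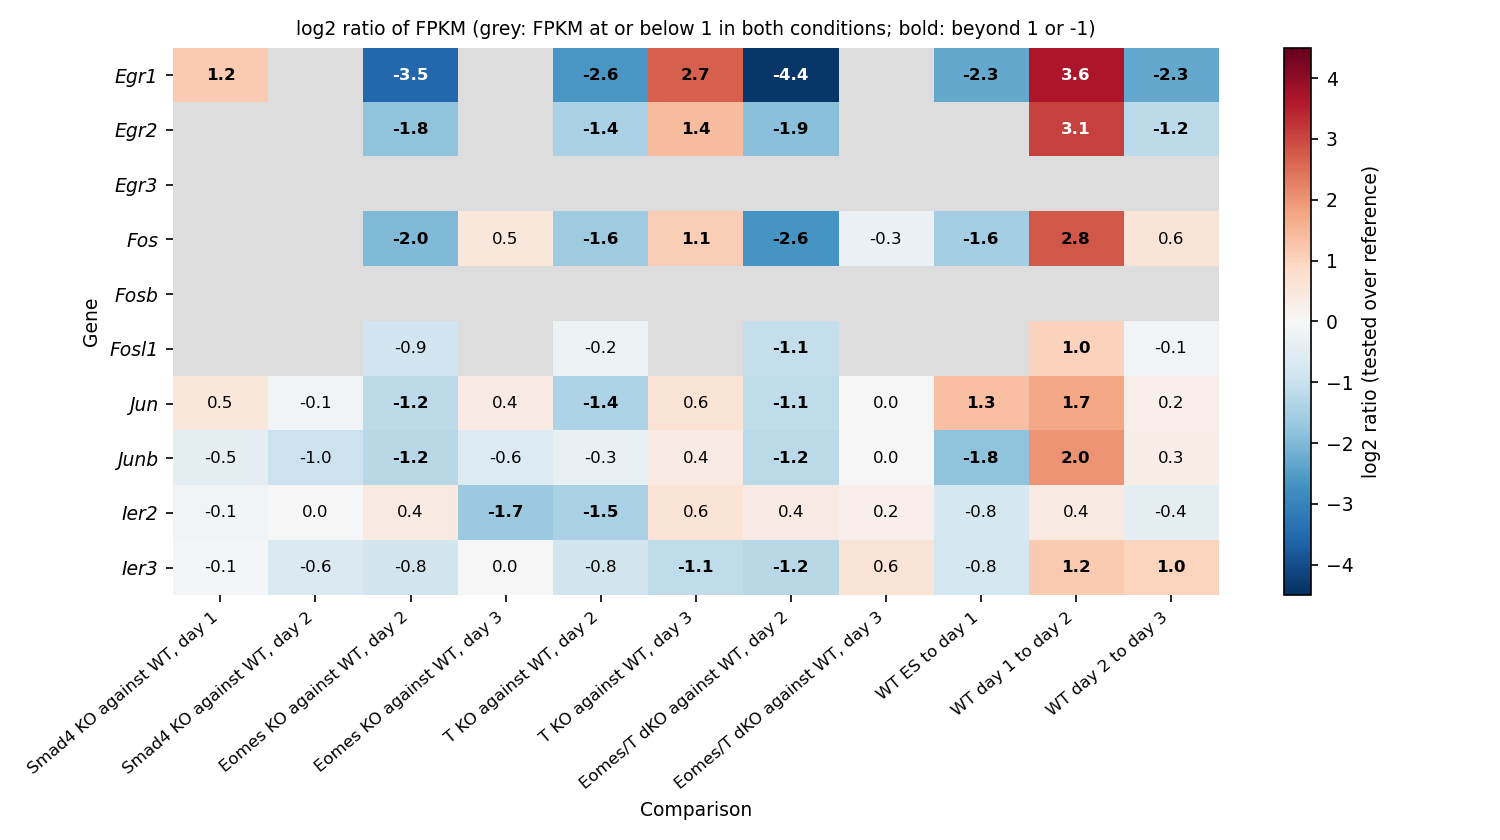
Log2 ratio of FPKM for the 10 genes (rows) in 11 comparisons (columns), tested over reference, with red for higher, blue for lower, bold beyond 1 or −1, and grey where both values are at or below FPKM 1. Blue fills most cells of the day 2 columns of the 3 KO lines made from F1G4, whose shared WT reference is the same column that gives the red cells from day 1 to day 2.

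In the *Smad4* line few of the 10 genes passed. Loss of *Smad4* did not lower its own FPKM (33.8 in WT against 39.4 in KO cells on day 1, 39.3 against 46.8 on day 2) and Cre removed exon 1 alone, so this value does not check the labels. *T* and *Eomes* both passed as lower on day 2, *T* at 26.6 in WT cells and 0.891 in the KO, and *Eomes* at 24.8 and 1.73. On day 1, 1 of 5 examined genes passed as higher, beside 2.36% of all genes, and none as lower, beside 2.41%. It was *Egr1*, at 0.703 in WT and 1.58 in KO cells (1.17), which was examined through its KO value alone. *Egr2*, at 0.0428 and 0.696, lay under the minimum in both. *Jun* (6.65 and 9.30, 0.48), *Junb* (9.02 and 6.58, −0.46), *Ier2* (15.2 and 13.9) and *Ier3* (5.44 and 5.07) did not pass.

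On day 2 none of 4 examined genes passed, beside 3.21% of all genes lower and 2.56% higher. *Junb* came nearest, at 6.06 in WT and 3.11 in KO cells (−0.96), and 376 of 10999 genes had a lower log2 ratio. *Ier3* was at 4.27 and 2.73 (−0.64), *Jun* at 8.12 and 7.52 (−0.11) and *Ier2* at 16.4 and 16.6 (0.01). *Egr1* (0.554 and 0.367) and *Fos* (0.719 and 0.207) were below FPKM 1 in both columns.

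The wider set of genes around these 10 comprised 59 others, namely early transcription factors, early response genes, ERK feedback genes, SRF and its partners, further AP-1 partners and the Egr corepressors. On day 2, 5 of 54 examined passed as lower in the *Eomes* KO, beside 4.17% of all genes, and 3 as higher, beside 3.35% (median log2 ratio −0.02). In the *T* KO 3 passed as lower, beside 9.93%, and 6 as higher, beside 5.7% (0.14). In the dKO 7 passed as lower, beside 4.5%, and 2 as higher, beside 3.48% (−0.27). From day 1 to day 2 of the F1G4 time course 13 of 54 passed as higher, beside 7.17%, and 2 as lower, beside 4.13% (0.15).

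Single genes of the set did pass in all 3 lines on day 2. *Atf3*, a stress-induced partner of Jun, was lower in the *Eomes* KO (11.3 to 3.43), the *T* KO (11.7 to 3.50) and the dKO (11.2 to 5.47). *Cyr61*, a secreted target of SRF and YAP, was at 21.4, 22.8 and 19.6 against 47.3 to 49.4. *Dusp1*, a phosphatase that ends MAP kinase signalling, passed in the *Eomes* KO (11.9 to 4.35) and the dKO (11.9 to 5.67), as did the AP-1 repressor *Jdp2* (7.86 to 1.31 and 7.85 to 2.21). *Dusp5*, which acts on nuclear ERK, was instead higher in all 3, at 13.1, 10.7 and 9.84 against 3.62 to 3.78. *Nab2*, a corepressor that binds Egr1, was also higher, at 5.28, 6.15 and 4.60 against 1.65 to 1.72.

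*Nab2* stood opposite on day 3. In F1G4 WT cells it went from 1.67 on day 2 to 29.5 on day 3 (4.14) while *Egr1* went from 3.98 to 0.798. It was lower than WT in the *Eomes* KO on day 3 (30.7 to 4.61), the *T* KO (29.7 to 13.4) and the dKO (30.6 to 8.75). In *Smad4* WT cells *Nab2* was at 2.59 on day 1 and 3.37 on day 2, and in *Smad4* KO cells at 3.21 and 5.54.

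Of 13 ERK feedback genes, 8 passed as lower on day 3 in the *Eomes* KO (median log2 ratio −1.74), beside 9.01% of all genes. In the dKO 5 did (−0.79), beside 5.53%, and in the *T* KO 1 (−0.52), beside 3.92%. *Dusp6*, a phosphatase for ERK, was at 11.7 in the *Eomes* KO and 25.5 in the dKO against 71.7 and 71.3, and *Spry4*, an inhibitor of receptor tyrosine kinase signalling, at 0.767 and 2.27 against 6.31 and 6.29. On day 2 this list had 1 of 13 lower and 1 higher in the *Eomes* KO, beside 4.17% and 3.35% of all genes. The dKO also had 1 lower and 1 higher, beside 4.5% and 3.48%. The *T* KO had none lower and 3 higher (*Dusp5*, *Etv4* and *Spry1*), beside 9.93% and 5.7%. Of the immediate early genes, 1 of 5 examined passed as lower in the *Eomes* KO on day 3 (*Ier2*). A link between this list and the immediate early genes was not tested.

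Among early transcription factors *Maff*, a small Maf protein, was lower in the *Eomes* KO on day 3 (28.0 to 6.51) and the dKO (27.9 to 7.10), as was the Fos relative *Fosl2* (5.22 to 2.07 and 5.20 to 2.15). In F1G4 WT cells *Fosl2* went from 0.321 on day 1 to 1.21 on day 2 and 5.03 on day 3, and *Maff* from 3.89 to 11.2 and 26.9. *Sgk1*, a kinase of the early response list, was lower on day 3 in the *Eomes* KO (52.5 to 4.23), the *T* KO (50.7 to 14.6) and the dKO (52.3 to 12.2), and on day 2 in the *Smad4* KO (26.2 to 5.24). Of SRF and its partners, none of 6 examined passed on day 2 in the 3 lines made from F1G4. Over all genes 4.17% to 9.93% passed as lower in these lines and 3.35% to 5.7% as higher.

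The profiles over the 14 conditions were compared on log2(FPKM + 0.1), and the values below describe conditions that share lines, days and tables. *Junb* (Pearson's r = 0.82), *Fos* (0.79) and *Egr1* (0.69) were most like the mean of the other 7 genes that exceeded FPKM 1 in some condition, and *Fosl1* (0.15) and *Ier2* (−0.05) least. The pair most alike was *Fos* and *Junb* (r = 0.86). Of 9306 other genes, the 6 most like the mean of the 8 were *H2-T22* (0.87), *Dsn1* (0.83), *Sat1* (0.82), *Pvr* (0.82), *Ndrg1* (0.81) and *Tmem218* (0.81), and those most like *Egr1* alone were *Dusp1* (0.82), *Tjp3* (0.74), *Hyls1* (0.72) and *Nipal3* (0.71). *Dusp1* was at 12.0 in F1G4 WT cells on day 2 and 6.59 in WT cells of the *Smad4* line.

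The summed FPKM of 8 fibroblast markers, checked because feeder fibroblasts were removed before differentiation, lay between 0.664 and 10.2 over the 14 conditions. *Col3a1* was at or below 0.231 throughout, but other markers reached more. *Pdgfrb* was at 5.81 and *Postn* at 1.46 in the *Eomes* KO on day 3. *Thy1* was at 2.97 in F1G4 WT cells on day 1, and *Dcn* at 2.02 in the *Smad4* KO on day 2. On day 2 the sum of the 8 was 3.45 in F1G4 WT cells, 2.89 with *Eomes* deleted, 4.41 with *T* deleted and 2.09 with both deleted. Definitive endoderm markers summed to 0.512 to 9.29, and pluripotency markers to between 399.7 in the *Eomes* KO on day 3 and 2013 in ES cells. Of 6 neural markers, 4 were examined in the *Eomes* KO on day 2 and 3 passed as higher, beside 3.35% of all genes. In the *T* KO 1 of 3 examined passed as higher, beside 5.7%, and in the dKO 2 of 4, beside 3.48%. The part of cell composition in the levels of the immediate early genes was not tested.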

How the data were processed

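Strand-specific libraries came from the total RNA of cells that had been trypsinized and washed. Per the labels and the study's methods, the authors trimmed reads with cutadapt 2.9, aligned them with HISAT2 2.1.0 to mm10 with refSeq genes, and computed the deposited FPKM values with Cuffdiff 2.2.1 (correcting for multi-reads and bias, and leaving the effective length uncorrected). There are 9 tables, each normalized separately, and a table holds 1 pooled column per condition. FPKM carries no counts, so counting precision is unknown, and a value of 0 gave no fold.

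Ratios were taken within a table without a pseudocount. The 10 genes, the gene lists and the comparisons were chosen with earlier results of these data known. Named genes are the 10, the targeted genes, and the at most 4 genes of each list with the largest passing ratios. As exceptions, *Nab2*, *Dusp1*, *Atf3*, *Cyr61*, *Col3a1* and *Pdgfrb* are also given where they did not pass. *Fosl2*, *Maff* and *Sgk1* are given in other comparisons than the one they passed in, and *Hsp90aa1* without values. For likeness, genes with FPKM of at least 5 in a condition were compared. The WT lines, and KO lines with the WT cells of the *Smad4* line, were compared across tables after scaling to a median ratio of 1. Positions and promoters came from RefSeq (GRCm38.p6), transcript length and GC content from GENCODE. The rule for changes was tested on simulated data. Only genes well above the FPKM minimum were changed there, so the simulation does not cover *Egr1*, *Egr2*, *Fos* and *Fosl1* at their day 2 levels. Tables were handled with pandas 2.3.3 and numpy 2.4.6 in Python 3.11.15, and plots drawn with matplotlib 3.10.9. The motifs were chosen from general knowledge.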

Additional observations from a re-analysis of the deposited data

Results flagged for a closer look

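A few genes passed the rule for change in opposite directions on the 2 days of the *T* KO. The log2 ratio to WT was −2.64 on day 2 and 2.69 on day 3 for *Egr1*, −1.45 and 1.43 for *Egr2*, and −1.61 and 1.09 for *Fos*. The difference between the days was not tested, as each condition has 1 value, and each day has its own F1G4 WT column, with *Egr1* at 3.98 on day 2 and 0.798 on day 3.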

How the results depend on the processing

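No paired analysis was possible because each condition has a single pooled column. The number of the 10 genes past the rule moved by more than 1.5 times as follows. With no FPKM minimum it was 4 in place of 1 in the *Smad4* KO on day 1, 2 in place of 0 on day 2, and on day 3 5 in place of 1 in the *Eomes* KO and 4 in place of 0 in the dKO. On a TPM scale, on which more genes lie above the minimum, these counts were 2, 1, 4 and 3. With a minimum of 5 they were 2 in place of 5 in the *Eomes* KO and *T* KO on day 2, 3 in place of 7 in the dKO on day 2, 0 in the *Smad4* KO on day 1, and in F1G4 WT cells 1 in place of 4 from ES to day 1, 3 in place of 7 from day 1 to 2 and 1 in place of 3 from day 2 to 3. With a pseudocount of 1 they were 3 in the *T* KO on day 2 and 1 in place of 4 on day 3, 4 in the dKO on day 2, 0 in the *Smad4* KO on day 1, and 1, 4 and 1 in the 3 steps of the WT time course. At a cutoff of 0.58 they were 2 in the *Eomes* KO and 1 in the dKO on day 3 and 2 in the *Smad4* KO on day 2. With the WT cells of the *Smad4* line, chosen after seeing the data, the counts were 0 in all 3 KO lines made from F1G4 on day 2 and 0 from day 1 to day 2. Scaling to a median ratio of 1 and the WT column of the time course moved no count by that much, and a pseudocount of 0.1 moved none either. Of 420 single log2 ratios under a pseudocount of 1 or 0.1, TPM or median scaling, 22 lost their call, 13 gained one and none that passed changed sign. *Egr1* kept its call on day 2 in the same 3 lines under all 4.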
